A study of Oryza sativa Japonica Group with 6 samples.

Results

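Abscisic acid (ABA) is the plant hormone that governs seed maturation, dormancy and many responses to stress. It is made from carotenoids: zeaxanthin epoxidase (ZEP) forms violaxanthin in the plastid, and NCED dioxygenases cleave cis-epoxycarotenoids to xanthoxin, the step that usually limits the rate of synthesis. ABA hydroxylases of the CYP707A family, called ABA8OX in rice, start its main route of breakdown to phaseic acid, so that the ABA level of a tissue follows from both NCED and ABA8OX activity. In cereal grains ABA rises during filling and maturation, when it promotes the expression of late embryogenesis abundant (LEA) proteins, among them dehydrins.

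The genes described here are 7 loci of ABA synthesis and breakdown, chosen by locus identifier: ZEP (LOC_Os04g37619), NCED1 (LOC_Os02g47510), NCED3 (LOC_Os03g44380), NCED5 (LOC_Os12g42280), ABA8OX1 (LOC_Os02g47470), ABA8OX2 (LOC_Os08g36860) and ABA8OX3 (LOC_Os09g28390). Of these, 6 had a row among the 29907 mRNA gene rows, and ZEP was not analysed here. RNA came from the endosperm of NingJing1, a Japonica cultivar, 10 days after pollination. Plants grown in the field to booting were then kept in a chamber with days of 36 °C and nights of 33 °C (high temperature, HT, n = 3) or with days of 28 °C and nights of 25 °C (normal temperature, NT, n = 3). Levels are FPKM, fragments per kilobase of transcript scaled to the library total, which allow genes of different length to be compared. The labels do not state whether the 3 samples of each temperature are separate plants, so the p-values here cover the spread among these libraries only, and that spread may be technical.

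FPKM summed to between 365035 and 380742 per sample, and sequencing depth is unknown. All 6 endosperm markers were abundant, and their summed level was 32495 to 33097 FPKM in HT and 28453 to 29150 FPKM in NT. Most of that sum was 2 glutelins. GLUA2 had mean levels of 20025 FPKM in HT and 18522 FPKM in NT, and GLUB4 (LOC_Os02g16830) of 11578 and 5499 FPKM. The 5 embryo and aleurone markers with a row summed to between 838 and 938 FPKM in HT and between 115 and 615 FPKM in NT, and none was at 0 throughout. Most of that sum was 1 marker, LOC_Os04g46200, with 648.76, 656.43 and 678.88 FPKM in HT, against 112.16, 569.13 and 74.31 FPKM in NT; it did not pass (limma, adjusted p = 0.11). NT sample 2 stood apart from the other NT samples in that marker, and without it the NT sums were 157 and 115 FPKM. The 6 green pericarp markers summed to between 119 and 154 FPKM in HT and between 161 and 210 FPKM in NT. Of the tested markers, 2 of 6 rose and 4 fell for endosperm, 2 of 5 rose for embryo and aleurone, and 3 of 6 fell for green pericarp. Among all tested genes, 13.0% rose and 22.8% fell. The 4 endosperm markers that fell had log2 fold changes from -1.49 for GBSSI (LOC_Os06g04200) to -2.13 for LOC_Os02g10800, and GLUB4 rose by 1.07. The 2 embryo and aleurone calls were RAB16A (LOC_Os11g26790), also listed below as ABA-responsive, and VP1 (LOC_Os01g68370). Each fit without 1 sample lost the call of VP1. OSH1 (LOC_Os03g51690), another embryo and aleurone marker, had mean levels of 0.593 FPKM in HT and 0.627 FPKM in NT. It did not pass (limma, adjusted p = 0.77). The rise of the glutelin GLUA2 (LOC_Os10g26060), a log2 fold change of 0.11, was lost with a constant prior variance, without a minimum level, on TPM and under quantile normalization (limma, adjusted p of 0.063 to 0.52), and under the last its direction turned, to -0.05. Of the green pericarp calls, only that of CAB2R (LOC_Os01g41710), a light-harvesting protein, held under every alternative. The summed level of each of the 3 lists thus differed between the groups in the same samples as the ABA genes below. The part of these tissues in the differences of those genes was not tested. In such a bulk tissue, fewer cells of a type and less RNA per cell cannot be told apart.

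Between the temperatures, the breakdown genes ABA8OX1 and ABA8OX2 moved in opposite directions, and the groups overlapped for ABA8OX3. ABA8OX1 was about 11 times as abundant in HT endosperm, ABA8OX2 was at 0.50 of its NT level, and the synthesis gene NCED3 was 2.21 times as abundant (ratios of mean FPKM, 3 samples per group). ABA8OX2 was nevertheless the most abundant of the 6 genes in every sample. NCED1 and NCED5 were listed above 0 only in HT sample 2.

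**Figure D1:**
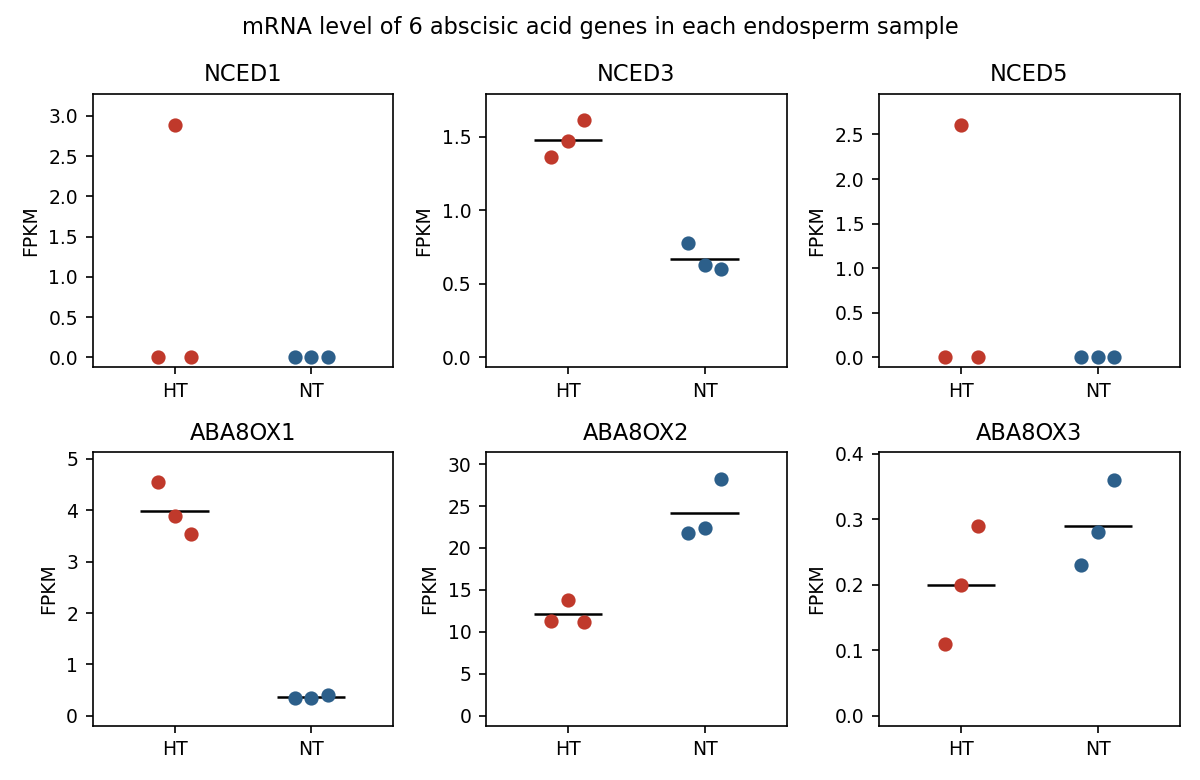
FPKM of the 6 ABA genes with a row (y axis, separate scale per panel) in the HT and NT samples; each point is a sample and the black lines are group means, left out for NCED1 and NCED5. The HT points lie above all NT points for NCED3 and ABA8OX1 and below all NT points for ABA8OX2, and overlap with them for ABA8OX3.

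NCED3, an epoxycarotenoid dioxygenase of the synthesis branch, had 1.36, 1.47 and 1.61 FPKM in the HT samples, against 0.78, 0.63 and 0.60 FPKM in the NT samples. Every HT sample was higher than every NT sample, although the gene was low in both: its mean level exceeded that of only 15.9% of the mRNA genes tested. The means were 1.48 ± 0.125 FPKM in HT and 0.67 ± 0.0964 FPKM in NT (SD, n = 3 each). On the log2(FPKM + 1) scale NCED3 rose by 0.57 ± 0.08 (standard error; limma, adjusted p = 0.0041). That scale understates changes of low genes, and with a pseudocount of 0.1 in place of 1 the log2 fold change was 1.04.

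The other dioxygenases of the set, NCED1 and NCED5, were each listed above 0 in only 1 sample. NCED1 was listed at 2.89 FPKM in HT sample 2 and at 0 in the other 2 HT samples and in all 3 NT samples. NCED5 was listed at 2.61 FPKM in that same HT sample and at 0 in the other 5 samples. The groups therefore overlap for both genes, and neither reached the mean of 0.5 FPKM required for testing. A value of 0 in such a table can be a failed estimate, so no mean or fold change is given. How reads shared by similar genes of the family were counted is not stated, and values of each NCED gene carry that uncertainty. HT sample 2 held 54 mRNA rows that were above 1 FPKM there and listed at 0 in the other 5 samples, against 40 and 31 such rows in the other HT samples and 30 to 41 in the NT samples.

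Summed over the 3 dioxygenases, the level was 1.36, 6.97 and 1.61 FPKM in HT, against 0.78, 0.63 and 0.60 FPKM in NT. Outside HT sample 2 this sum is the NCED3 level itself, because NCED1 and NCED5 had no level above zero listed there. In HT sample 2, NCED1 and NCED5 made up most of the sum. All HT sums lay above the NT sums, but this order was fixed by NCED3 and is no separate result. The missing levels of NCED1 and NCED5 can be failed estimates, so the sum does not show the level of the 3 genes together.

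Among the hydroxylases, ABA8OX1 (CYP707A5) had 4.54, 3.88 and 3.53 FPKM in HT, against 0.34, 0.35 and 0.40 FPKM in NT. No value of one group came near the other, and the spread within each group was small beside the gap. The means were 3.98 ± 0.513 FPKM in HT and 0.363 ± 0.0321 FPKM in NT (SD, n = 3 each), a ratio of 11. On the log2 scale ABA8OX1 rose by 1.87 ± 0.09 (standard error; limma, adjusted p = 0.00017), and only 1.16% of all tested mRNA genes had a larger log2 fold change. With a pseudocount of 0.1 the log2 fold change was 3.13. The mean in NT lay under the testing minimum, so the gene was tested because of its level in HT; without any minimum it rose as well (limma, adjusted p = 0.00039).

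ABA8OX2 (CYP707A6) went the other way, with 11.29, 13.81 and 11.15 FPKM in HT, against 21.84, 22.44 and 28.25 FPKM in NT. The highest HT sample was below the lowest NT sample. The means were 12.1 ± 1.5 FPKM in HT and 24.2 ± 3.54 FPKM in NT (SD, n = 3 each). ABA8OX2 fell by 0.94 on the log2 scale with a standard error of 0.13 (limma, adjusted p = 0.0043), and 95.6% of tested genes had a higher log2 fold change. Its mean level exceeded that of 88.5% of tested genes.

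ABA8OX3 (CYP707A7), the third hydroxylase, had 0.11, 0.20 and 0.29 FPKM in HT, against 0.23, 0.28 and 0.36 FPKM in NT. The groups overlapped, and the gene was under the testing minimum. Fitted without that minimum it had a log2 fold change of -0.11 (limma, adjusted p = 0.36), which does not show that its level was the same in both groups.

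The 3 members tested, NCED3, ABA8OX1 and ABA8OX2, all passed the threshold of an adjusted p under 0.05, and for all 3 the samples of the groups did not overlap. Among all 17050 mRNA genes tested, 35.8% passed, 13.0% as higher and 22.8% as lower in HT, and the groups did not overlap for 51.7%. Calls were thus common in this comparison, and 3 genes are too few to set a share of their own beside that background. Rescaling without the 100 most abundant genes turned the split of calls over all genes to 2706 higher and 3037 lower, against 2222 and 3887 on the deposited scale. Over the scaling alternatives, ABA8OX1 kept log2 fold changes of 1.86 to 2.53, NCED3 of 0.54 to 0.81 and ABA8OX2 of -1.01 to -0.83, all past the threshold.

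**Figure D2:**
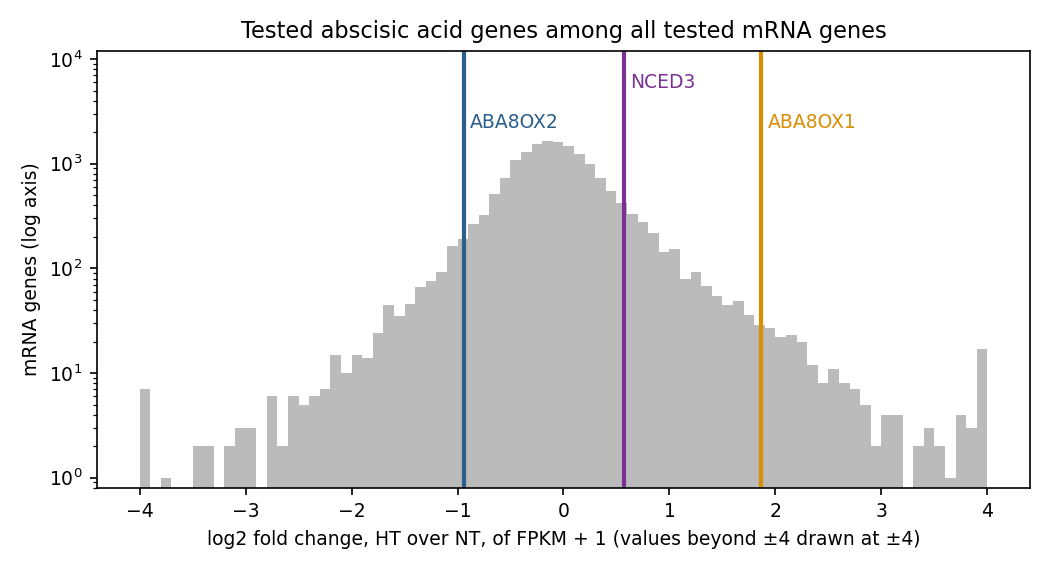
Histogram of the log2 fold change of FPKM + 1, HT over NT (x axis), for the 17050 mRNA genes tested (y axis: number of genes, log scale); the vertical lines mark the 3 ABA genes tested. ABA8OX1 at 1.87 lies far in the right tail, NCED3 at 0.57 on the right flank and ABA8OX2 at -0.94 on the left flank.

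The order of levels differed between the temperatures. With NCED1 and NCED5 left out, the order in HT was ABA8OX2, ABA8OX1, NCED3 and ABA8OX3 from high to low. The ranges over samples of neighbours in that order did not overlap. In HT sample 2, NCED1 and NCED5 were listed at 2.89 and 2.61 FPKM, above NCED3 at 1.47 FPKM. In NT the order was ABA8OX2, NCED3, ABA8OX1 and ABA8OX3. The NT range of NCED3, 0.60 to 0.78 FPKM, did not overlap that of ABA8OX1, 0.34 to 0.40 FPKM. The ranges of ABA8OX1 and of ABA8OX3, 0.23 to 0.36 FPKM, overlapped, although ABA8OX1 was the higher of that pair within each NT sample.

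The makeup of hydroxylase mRNA differed between the temperatures, as did its total. ABA8OX1 supplied 28.5%, 21.7% and 23.6% of the summed FPKM of the 3 hydroxylases in HT, against 1.52%, 1.52% and 1.38% in NT. ABA8OX2 supplied 70.8% to 77.2% in HT and 97.3% to 97.5% in NT, and ABA8OX3 supplied 0.69% to 1.94% in HT and 1.03% to 1.24% in NT. The share of ABA8OX1 in HT thus lay far above that in NT in every sample, while the share of ABA8OX3 overlapped. The ratio of ABA8OX1 to ABA8OX2, which does not depend on how samples are scaled to each other, was 0.402, 0.281 and 0.317 in HT, against 0.0156, 0.0156 and 0.0142 in NT.

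The summed hydroxylase level was 15.94, 17.89 and 14.97 FPKM in HT, against 22.41, 23.07 and 29.01 FPKM in NT. It was lower in every HT sample, the lower level of ABA8OX2 outweighing the higher level of ABA8OX1 in FPKM. The means of the sum were 16.3 ± 1.49 FPKM in HT and 24.8 ± 3.64 FPKM in NT (SD, n = 3 each). Set against that sum, NCED3 stood at a ratio of 0.0853, 0.0822 and 0.108 in HT and of 0.0348, 0.0273 and 0.0207 in NT. Set against ABA8OX1 alone the order turned round, with ratios of 0.30, 0.379 and 0.456 in HT and of 2.29, 1.8 and 1.5 in NT. These sums and ratios are over members chosen with results known and are given without a test; they are mRNA levels, and hormone content was not measured.

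**Figure D3:**
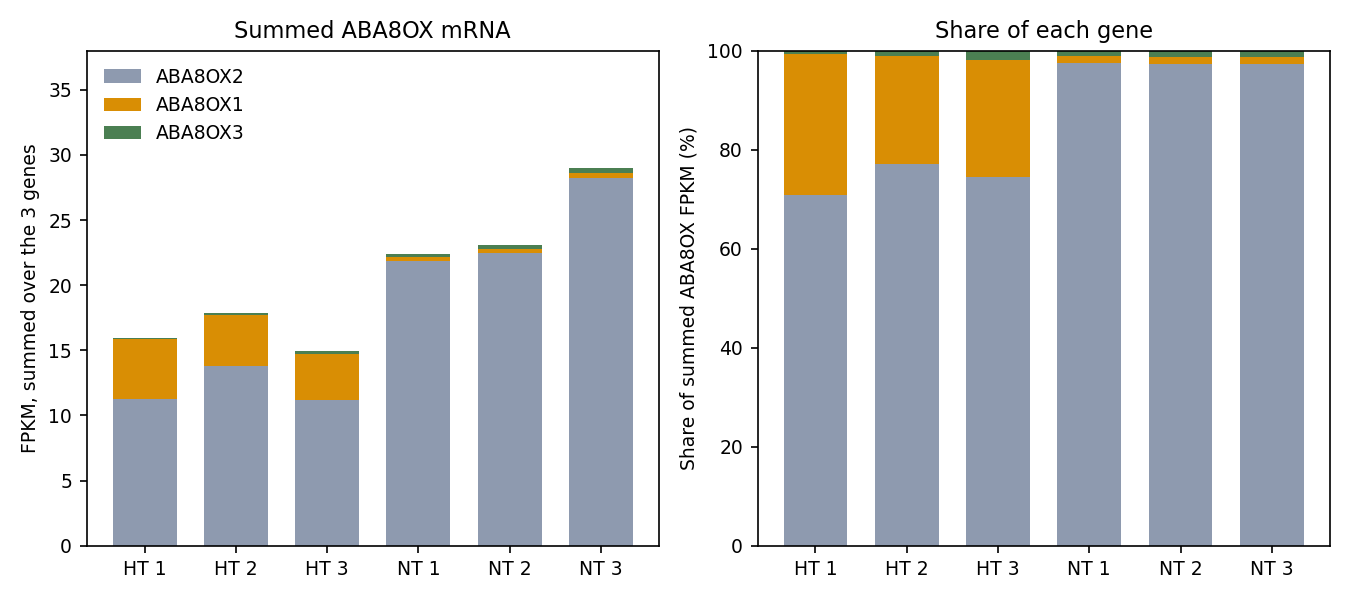
Left, FPKM of the 3 ABA hydroxylase genes stacked per sample; right, their shares of that sum in percent. HT samples have lower sums, of 14.97 to 17.89 FPKM against 22.41 to 29.01 FPKM in NT, and a larger ABA8OX1 share, of 21.7% to 28.5% against 1.38% to 1.52%.

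Positions were compared with the expression of nearby loci. NCED1 and ABA8OX1 lie close together on chromosome 2, with 3 rows of the table between them by locus number. Of the 20 nearest rows of ABA8OX1, 10 were tested, of which 2 rose and 2 fell, with a median log2 fold change of -0.12. The same count around ABA8OX2 was 3 that rose and 3 that fell of 10 tested (median -0.10), and around NCED3 4 that rose and 2 that fell of 15 tested (median -0.05). The median over all tested genes was -0.08. In the RefSeq gene table of assembly ASM3414082v1, 2 genes separate ABA8OX2 from TRAB1 (LOC_Os08g36790), which encodes a bZIP factor that binds ABA response elements. TRAB1 had 1.32, 3.05 and 1.51 FPKM in HT, against 1.90, 1.70 and 3.21 FPKM in NT, with overlapping groups, and did not pass (limma, adjusted p = 0.70).

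Around these genes, 7 lists of the ABA pathway held 61 further genes, of which 49 were tested. Of those, 8 rose, 4 fell and 37 did not pass, beside the 13.0% of all tested genes that rose and 22.8% that fell. The other synthesis steps and the carotenoid supply were mostly among the genes that did not pass. In the list of other synthesis steps, 0 of 4 tested genes rose and 1 fell (2 at an unadjusted p under 0.05 by limma), and the median log2 fold change was -0.20. An unadjusted p under 0.05 was found for 7750 of all 17050 genes tested (limma). The gene that fell, LOC_Os07g18120, carries no symbol in the sources used here and fell by 0.26 on the log2 scale. Its call was lost after rescaling without the 100 most abundant genes, without a minimum level and with a replicate block. Over the alternatives that kept all samples, the adjusted p lay between 0.018 and 0.076 (limma). Leaving out any 1 sample other than NT sample 1 also lost the call. ABA3 (LOC_Os06g45860), the molybdenum cofactor sulfurase needed by abscisic aldehyde oxidase, had 6.67 ± 0.412 FPKM in HT and 7.09 ± 0.178 FPKM in NT (SD, n = 3 each; limma, adjusted p = 0.37).

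Of 11 carotenoid genes tested, 1 rose and 1 fell, with a median log2 fold change of 0.05. PSY2 (LOC_Os12g43130), a phytoene synthase of the first committed step to carotenoids, had 2.53, 2.79 and 3.24 FPKM in HT, against 2.05, 2.44 and 1.95 FPKM in NT; the groups did not overlap, but it did not pass (limma, adjusted p = 0.077). PSY1 (LOC_Os06g51290) and the phytoene desaturase PDS (LOC_Os03g08570) had overlapping groups and did not pass (limma, adjusted p = 0.32 and 0.41). The carotenoid gene that rose, LOC_Os03g03370, and the one that fell, LOC_Os07g10490, had log2 fold changes of 0.50 and -0.88 and carry no symbol in the sources used here.

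Next come the ABA signalling genes. Receptors of the PYL family bind ABA and then block PP2C phosphatases, which frees SnRK2 kinases, named SAPK in rice. None of 3 receptors tested passed (limma; also 0 at an unadjusted p under 0.05). Of 8 PP2C genes tested, 1 rose and 2 fell, a share near the 35.8% called among all genes. An unadjusted p under 0.05 was found for 6 of the 8 (limma), beside 7750 of all 17050 tested genes. The groups did not overlap for 6 of them, beside 51.7% of all tested genes. PP2C53 (LOC_Os05g51510) had 0.80, 0.92 and 0.89 FPKM in HT, against 2.54, 2.12 and 2.16 FPKM in NT, and fell by 0.81 on the log2 scale (limma, adjusted p = 0.0013), with no overlap of the groups. PP2C50 (LOC_Os05g46040) fell by 0.61 and PP2C30 (LOC_Os03g16170) rose by 0.54 on that scale (limma, adjusted p = 0.032 and 0.025). Both calls were fragile: PP2C50 passed in only 1 and PP2C30 in only 2 of the 6 fits that left out a sample, with adjusted p up to 0.093 and 0.078 (limma). Alternatives also called PP2C genes that did not pass here, among them PP2C09 and PP2C51 as higher after rescaling without the 100 most abundant genes. PP2C08 was called lower without HT sample 2, and PP2C06 was called lower without HT sample 3.

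No SAPK gene passed among 10 tested, and 4 had an unadjusted p under 0.05 (limma), beside 7750 of all 17050 tested genes. Alternatives called 1 of them at a time: SAPK9 as higher after rescaling without the 100 most abundant genes, with a replicate block and without NT sample 2, SAPK10 as higher without HT sample 2, SAPK1 as higher without HT sample 3 and SAPK4 as lower without NT sample 3. SAPK9 (LOC_Os12g39630) had 18.86, 28.77 and 15.80 FPKM in HT, against 9.43, 14.76 and 9.21 FPKM in NT, with a log2 fold change of 0.86 (limma, adjusted p = 0.065). Of 7 transcription factors tested, 2 rose and none fell (2 at an unadjusted p under 0.05). LOC_Os01g64000, which carries no symbol in the sources used here, had a log2 fold change of 0.91 (limma, adjusted p = 0.00073). The seed B3 factor VP1 (LOC_Os01g68370) had a log2 fold change of 0.15, and each fit without 1 sample lost its call (limma, adjusted p of 0.071 to 0.10). With all 6 samples the call was also lost with a constant prior variance, with a replicate block and on TPM (limma, adjusted p up to 0.098).

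Genes known to respond to ABA were higher in HT where they passed. Of 6 dehydrin and other LEA genes tested, 4 rose and none fell, with a median log2 fold change of 1.61. Among all tested genes 13.0% rose and 22.8% fell, and the median was -0.08. The dehydrin LIP9 (LOC_Os02g44870) had 26.05, 24.76 and 14.18 FPKM in HT, against 6.27, 6.90 and 6.34 FPKM in NT. RAB16B (LOC_Os11g26780), another dehydrin, had 13.03, 6.63 and 5.80 FPKM in HT, against 1.70, 1.96 and 1.80 FPKM in NT. The groups did not overlap for either, and the log2 fold changes were 1.55 and 1.67 (limma, adjusted p = 0.0058 and 0.0084). RAB16A (LOC_Os11g26790), listed also among the embryo and aleurone markers, had a log2 fold change of 2.42. RAB16C (LOC_Os11g26760) had overlapping groups and did not pass (limma, adjusted p = 0.31). The uncertainty about reads shared by similar genes holds for the RAB16 genes too. LEA3 (LOC_Os05g46480) rose by 1.07 on that scale and did not pass in 4 of 6 fits without 1 sample (limma, adjusted p up to 0.11). Its call was also lost without a minimum level (limma, adjusted p = 0.051). EMP1 (LOC_Os05g28210), an LEA gene that is also an embryo marker, had 131.93 FPKM in HT sample 1 and 3.54 and 5.0 FPKM in the other HT samples, against 4.18, 3.84 and 0.62 FPKM in NT, and did not pass. The lists share genes with the embryo and aleurone markers, whose summed level was also higher in HT. Most of that sum was 1 marker that did not pass, and OSH1 of the same list did not pass either. The part of those tissues was not tested.

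**Figure D4:**
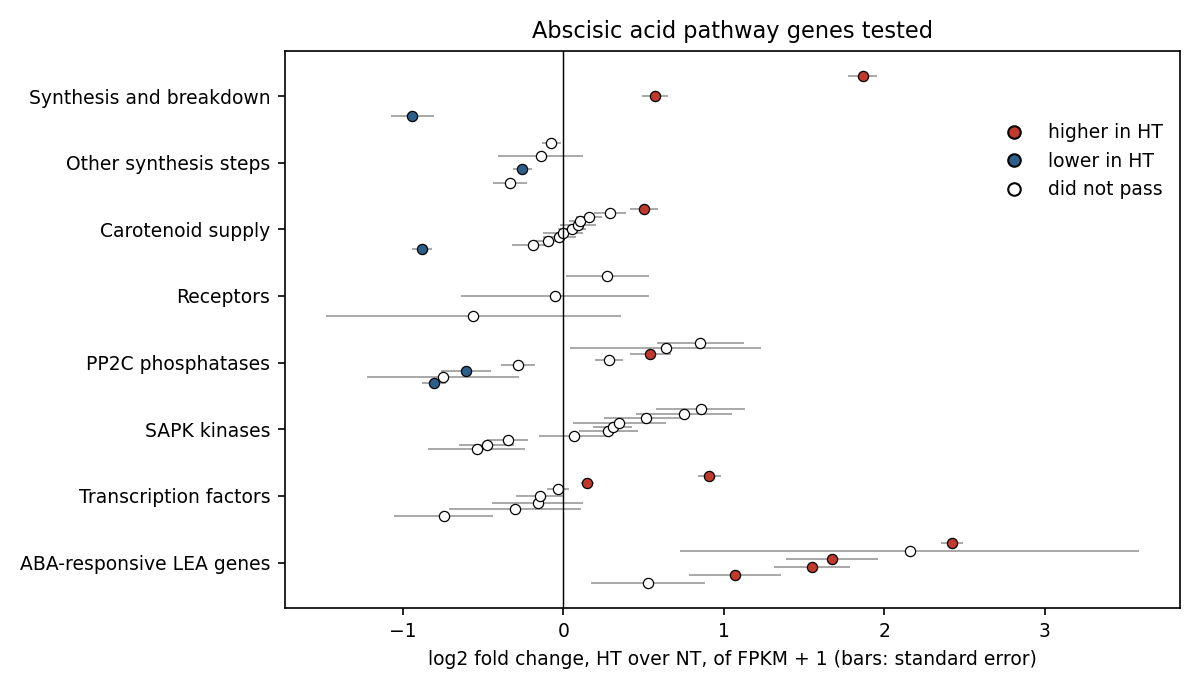
Log2 fold change of FPKM + 1, HT over NT (x axis), of each tested gene of the ABA pathway by list (rows); bars are standard errors and fill marks the call at an adjusted p under 0.05. Called genes are scattered in most lists, with 0 of 10 among SAPK kinases and 4 of 6, all higher in HT, among ABA-responsive LEA genes.

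The pathway gene with the most similar profile was sought for each called member, as the smallest root mean square difference of centred log2(FPKM + 1) values over the 6 samples among 51 candidates. For ABA8OX1 it was LIP9, at 0.26, followed by RAB16B at 0.26 and RAB16A at 0.31. For NCED3 it was LOC_Os03g03370, at 0.066, followed by PP2C30 at 0.091. For ABA8OX2 it was LOC_Os07g10490, at 0.15, followed by PP2C53 at 0.18. With 6 samples in 2 groups this measure mostly matches the size of the difference between the groups.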

How the data were processed

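Total RNA from rice endosperm was depleted of ribosomal RNA and sequenced as paired-end cDNA libraries, per the labels' protocols. StringTie 1.3.0, HISAT2 2.0.4, cutadapt 1.10 and FastQC 0.10.1 appear without roles in the submitters' processing notes. No source used here states the build, annotation or strand setting. The authors deposited FPKM per gene and sample, rounded to 2 decimals, per the file headers. Between 21.0% and 29.9% of the values compared per sample lay within 0.1 of a whole multiple of a gene's lowest value above 0. The values compared were those within a few multiples of that lowest value, with no upper limit on level. No share expected from the tolerance alone was set beside this, so it does not decide whether reads could be recovered. Reads were not recovered, and no count model or detection limit was used. Samples were grouped by title.

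Genes with a mean of at least 0.5 FPKM over the 6 samples were tested with limma 3.58.1 in R 4.3.3 on log2(FPKM + 1), with a trended prior and no replicate block; tests were two-sided, adjusted by Benjamini-Hochberg over all 17050 mRNA genes tested. The fit was run on simulated data with independent noise, where changes were planted in few genes and were larger than several reported here. That run does not show how the fit performs on these data. Adjusted p-values are from that fit unless another is named. Alternatives changed the pseudocount, minimum, scale, prior and block, or left out a sample.

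The members and gene lists were chosen with earlier results of these data known. Symbols were paired with identifiers by hand. The RefSeq table gave 49 of 83 symbols once, on the chromosome of the identifier, and all 104 pairs on a chromosome were in the same order; NCED1 and NCED5 were not among them. Named genes were all members, up to 3 called genes per list and direction by size with a higher mean of at least 1 FPKM and a symbol found in that table, and the nearest profiles. Genes named outside that rule (ABA3, PSY1, PSY2, PDS, TRAB1, PP2C06, PP2C08, PP2C09, PP2C51, SAPK1, SAPK4, SAPK9, SAPK10, RAB16C, LEA3, EMP1, OSH1, and identifiers with no symbol) were chosen after their values were seen.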

Additional observations from a re-analysis of the deposited data

How the results depend on the processing

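NCED3, ABA8OX1 and ABA8OX2 kept their direction and passed the threshold under every alternative run. Without any 1 sample, NCED3 had log2 fold changes of 0.53 to 0.62, ABA8OX1 of 1.79 to 1.93 and ABA8OX2 of -1.03 to -0.83. ABA8OX3, under the testing minimum, was not in those fits. Its plain difference of mean log2(FPKM + 1) without any 1 sample was -0.16 to -0.05. After rescaling to TPM it was fitted, with a log2 fold change of -0.23 (limma, adjusted p = 0.33). For NCED1 and NCED5 no fold change is given, because each is listed at 0 in all NT samples; without HT sample 2 both are listed at 0 in every remaining sample.

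Same-numbered HT and NT samples did not deviate together (correlations across genes of -0.02 to 0.00, against -0.02 to 0.02 for unlike numbers). This check cannot exclude that same-numbered samples were handled together, so whether the numbers pair the samples is unknown. With a replicate block, 1657 genes were higher and 2910 lower, against 2222 and 3887 without, and limma gave adjusted p = 0.035 for NCED3, 0.0091 for ABA8OX1 and 0.030 for ABA8OX2. With that block PP2C30, PP2C50, VP1, LOC_Os07g18120 and the green pericarp marker LOC_Os07g22930 did not pass (limma, adjusted p = 0.090, 0.069, 0.098, 0.076 and 0.078) and SAPK9 did (adjusted p = 0.013); it changed no other call among the listed genes. Depth is unknown, and values under 1 FPKM, as of NCED3 in NT, are the least certain.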
